A study of Mus musculus with 6 samples.

Results

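The chitinase-like gene cluster of mouse chromosome 3 holds Chil3, Chil4, Chil5, Chil6 and Chia1, and was described here through the 100-kb bins that cover it and its surroundings. Of 23651 kept autosomal bins, 20 overlap the window examined, which runs from 105199923 to 107200275 on chromosome 3 of mm10. The 5 genes lie within 389.3 kb of one another, from 106016919 to 106406182. They overlap 5 neighbouring bins, called the cluster below, with 8 bins of left flank before them and 7 bins of right flank after them. The window was selected on a measured value, the compartment score of the cluster, which was lower in the Erg KO libraries than in the controls. Every Erg KO value of the window is therefore given as a description. Where bins or bin pairs of the window passed the fits over all bins in that comparison, their count is printed beside the share of all bins or pairs, and nothing is read from it.

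The assay was in situ Hi-C, in which DNA ends near each other in intact nuclei are ligated and the joined fragments are sequenced and counted as contacts. It was applied to cultured B-cell progenitors, with 2 libraries for each of 3 genotypes. The Erg KO libraries carried Rag1CreT/+;Erg fl/fl, so that a Cre recombinase expressed from Rag1 deletes floxed Erg, the gene of an ETS transcription factor. Mice of the CreT control were Rag1CreT/+ with unfloxed Erg. Those of the Erg fl/fl control were Rag1Cre+/+;Erg fl/fl, so that floxed alleles were present without Cre. All 6 libraries came from mice labelled C56BL/6, from lineage-negative marrow grown for 8 days on OP9 stromal feeder cells with SCF, IL7 and FL and then selected for B220. Rag1 is first active in lymphoid progenitors, so cells before that stage would keep Erg. The labels give no age for these mice, and the study's methods give a range of weeks for its mice in general, not for these libraries. In its Hi-C comparison the study treats the Erg KO cells as pre-proB cells and the controls as proB cells, and genotype and stage cannot be told apart. Bins of this size cannot show the loss of a floxed exon, so the deletion was not checked.

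The members belong to a family of glycosyl hydrolases, enzymes and lectins that bind chitin and related sugars. Chia1 encodes acidic mammalian chitinase, an active enzyme of the stomach and airway, whereas Chil3 (also called Ym1) and Chil4 (Ym2) encode secreted lectins that have lost that activity. Chil3 is best known from neutrophil and monocyte precursors and from alternatively activated macrophages, and none of these genes is known for a role in B cells. In Hi-C data the genome divides into compartment A, gene-rich and mostly active, and compartment B, gene-poor and mostly silent, and regions of one compartment meet each other more often than regions of the other. Contacts are not expression, and no transcript of these genes was measured here.

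The promoters of the 3 members that start in the bins with the lowest compartment scores are shown because Chil3 and Chil4 are near copies of each other, which bears on how reads can be placed between their bins. Each run is RefSeq sequence of GRCm38.p6 on the strand of the gene, from 250 bases before the start that RefSeq gives to 50 bases after it. For Chia1 and Chil4 that start differs from the GENCODE start by which the genes were placed in bins. Capitals mark TAAAAAGCCA, the longest run of letters that 4 of the 5 member promoters share, and matches to CAGGAAG or CCGGAAG, letters bound by ETS factors such as Erg, on either strand, so that the match in Chil4 reads as its reverse complement.
Chia1 (chr3:106113132-106113431, plus strand): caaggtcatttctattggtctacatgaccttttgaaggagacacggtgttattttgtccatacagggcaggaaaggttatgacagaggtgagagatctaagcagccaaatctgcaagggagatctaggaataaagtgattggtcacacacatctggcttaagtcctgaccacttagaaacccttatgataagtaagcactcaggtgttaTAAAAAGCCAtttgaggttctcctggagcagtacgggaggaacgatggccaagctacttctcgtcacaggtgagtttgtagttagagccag
Chil3 (chr3:106167515-106167814, minus strand): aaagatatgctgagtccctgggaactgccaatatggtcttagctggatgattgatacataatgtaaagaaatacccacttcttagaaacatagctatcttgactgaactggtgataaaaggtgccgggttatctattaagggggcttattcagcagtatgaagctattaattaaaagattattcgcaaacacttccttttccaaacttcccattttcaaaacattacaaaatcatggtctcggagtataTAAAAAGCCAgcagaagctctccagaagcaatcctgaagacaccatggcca
Chil4 (chr3:106219430-106219729, minus strand): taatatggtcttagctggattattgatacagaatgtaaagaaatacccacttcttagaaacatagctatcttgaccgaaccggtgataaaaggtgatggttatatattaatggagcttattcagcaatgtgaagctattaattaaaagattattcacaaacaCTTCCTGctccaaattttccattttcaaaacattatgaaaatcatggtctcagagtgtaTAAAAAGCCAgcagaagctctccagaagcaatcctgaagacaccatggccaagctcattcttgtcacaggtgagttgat

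The Chil3 and Chil4 promoters were identical at 251 of 271 aligned bases (92.6%), and their longest coding transcripts at 1454 of 1535 (94.7%). The other pairs of members were less alike, between 73.0% and 78.1% over their longest coding transcripts. Within the gene bodies of Chil3 and Chil4 a single stretch of 2974 bases was shared at 93.5% identity. The window as a whole held 694 matches between its own stretches of at least 1000 bases and 90% identity. The longest, of 6553 bases at 99.5%, joined the left flank to the Chil4 bin. Such stretches covered 11.8% to 20.4% of each cluster bin and 0% to 28.7% of each flank bin. The letters TAAAAAGCCA stood in the promoters of Chil5, Chia1, Chil3 and Chil4 and in 43 of all 32851 promoters of this length (0.131%), searched on both strands. This run was found in the members and then counted, so its rarity is a description. An ETS match was present in the Chil4 promoter alone among the 5 members, at bases 163 to 169, and in 20.9% of all promoters. The letters of the Ebf1 and CTCF motifs searched, on both strands, were in no member promoter and in 0.904% and 0.0365% of all promoters.

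The left flank differed from the cluster in sequence, while the right flank was close to it in GC content. The 5 cluster bins had a median GC content of 39.4% and a median of 54.9% soft-masked repeats, against 43.8% and 25.9% in the left flank, 39.6% and 43.0% in the right flank, and 41.5% and 31.4% over all kept bins. Of 25 protein-coding genes that start in the window, 7 start in the cluster (the members with Pifo and Dennd2d), 10 in the left flank and 8 in the right flank. Pseudogenes numbered 6 in the cluster, none in the left flank and 1 in the right flank. Ovgp1, another gene of the same family, encodes oviductin, and starts in the left flank bin next to Chil5.

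The libraries held from 29014581 to 68085468 read pairs, and both extremes were controls. These totals are lower than the library sizes in the study's methods, for a reason that is not known. The share of read pairs between chromosomes was 32.3% and 34.6% in the Erg KO libraries and 21.6% to 26.8% in the controls. Values are given in the order Erg KO replicates 1 and 2, CreT control replicates 1 and 2, and Erg fl/fl control replicates 1 and 2. The study's methods describe the Hi-C libraries as biological duplicates of each genotype. Nothing in the labels says whether replicates of a group came from separate mice or cultures other than by sex. In Erg KO and in Erg fl/fl replicate 1 was female and replicate 2 male, while both CreT control libraries were female. The p-values measure only the spread between these libraries. The 2 Erg KO libraries differed from each other in the right flank, where replicate 1 was lower, and results that turn on one of them are given without it.

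The compartment score is the component of each library's contact pattern that follows gene density, scaled to an SD of 1 on each chromosome, so that positive values mark compartment A. Averaged over the 5 cluster bins, it was -0.165 and 0.0439 in Erg KO, 0.443 and 0.474 in the CreT control, and 0.41 and 0.611 in the Erg fl/fl control. Both Erg KO libraries lay below every control. The means were -0.0605 ± 0.148 (SD, n = 2) and 0.485 ± 0.0883 (SD, n = 4), a difference of -0.545. In the comparison that selected the window, so that the count is no evidence, all 5 cluster bins were called lower by limma against both controls together, where 2.2% of all bins were called lower, and 0 of 5 against the CreT control or the Erg fl/fl control alone, where 0% of all bins were. None of the 5 was called without CreT control replicate 1, or with sex left out of the model.

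**Figure D1:**
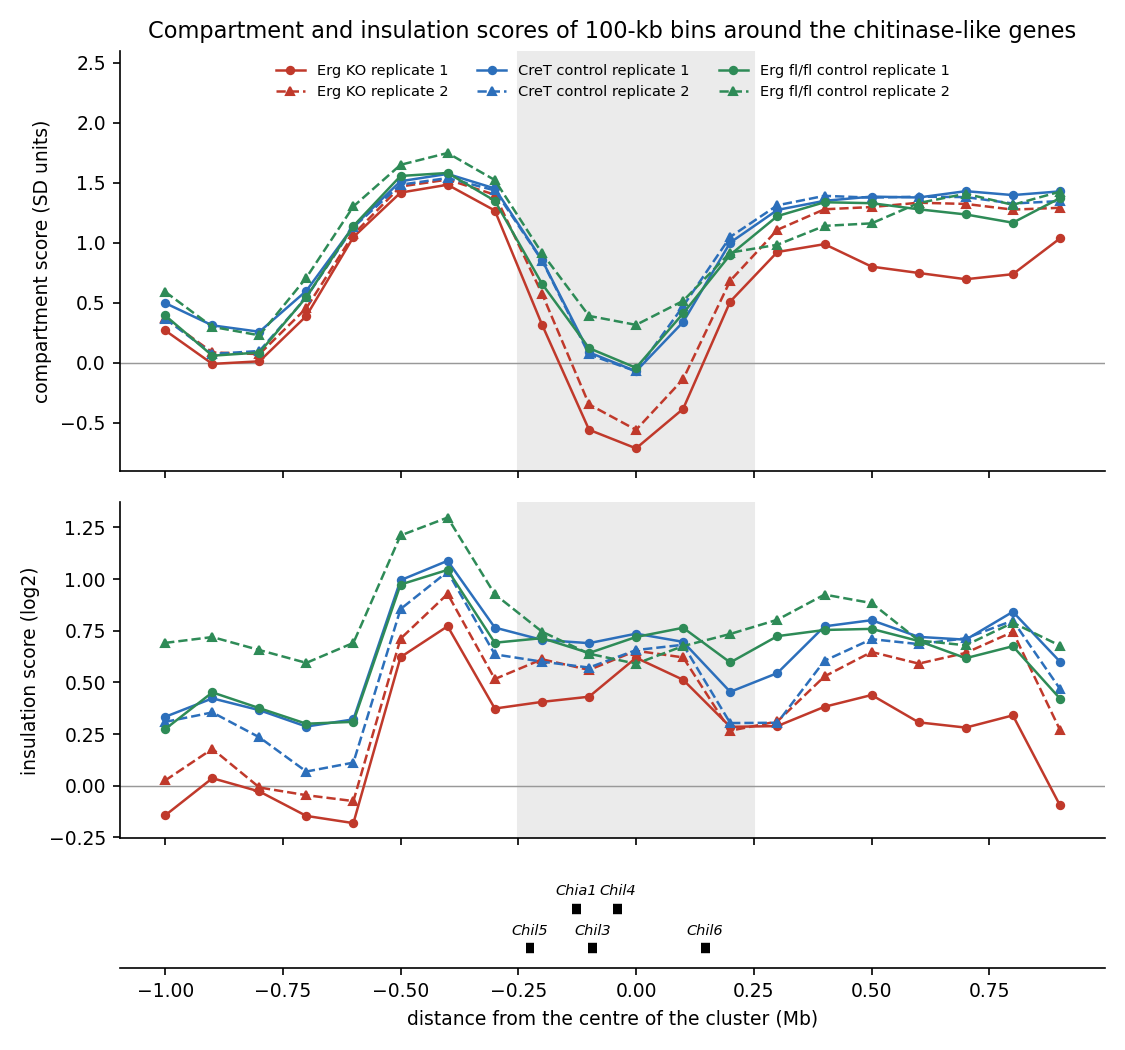
Compartment score (top) and insulation score (middle) of the 20 bins against distance from the centre of the cluster in Mb, 1 line per library, with the bins of the cluster shaded and the 5 member genes drawn below. Both Erg KO lines lie under all control lines across the shaded bins in the top panel, and Erg KO replicate 1 also lies under them across the right flank.

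The bin that holds Chia1 and Chil3 scored -0.558 and -0.346 in Erg KO, 0.0871 and 0.0696 in the CreT control, and 0.122 and 0.391 in the Erg fl/fl control. Its sign was negative in both Erg KO libraries and positive in all 4 controls. The next bin, which holds Chil4, scored -0.712 and -0.558, then -0.0699 and -0.0707, then -0.0412 and 0.316. Chil4 was thus near 0 in 3 controls and above 0 in Erg fl/fl control replicate 2. The bin between Chil4 and Chil6, in which no protein-coding gene starts but the 3' end of Chil6 lies, scored -0.383 and -0.136, then 0.34 and 0.472, then 0.412 and 0.516.

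The 2 outer bins of the cluster were positive in every library. The bin of Chil5 and Pifo, a gene of primary cilia, scored 0.319 and 0.576 in Erg KO and 0.659 to 0.914 in the controls. That of the start of Chil6 and of Dennd2d, a regulator of Rab GTPases, scored 0.511 and 0.684 in Erg KO and 0.9 to 1.05 in the controls. The fitted differences, with sex in the model, were -0.44 for the Chil5 bin, -0.68 for the Chia1 and Chil3 bin, -0.73 for Chil4, -0.74 for the bin after it and -0.39 for Chil6. Of the 5 cluster bins, 3 were below 0 in each Erg KO library, against 1 in each CreT control library and 1 and 0 in the Erg fl/fl control.

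Both flanks averaged above 0 in all 6 libraries, and of their 15 bins 1 was below 0, at -0.00874 in Erg KO replicate 1. The left flank averaged 0.735 and 0.807 in Erg KO and 0.835 to 1.01 in the controls. Its highest bin, with Rap1a, a small GTPase of integrin signalling, and the adenosine receptor gene Adora3 beside Tmigd3, scored 1.48 and 1.53 in Erg KO and 1.54 to 1.75 in the controls. The bins of the RNA helicase gene Ddx20 and of Inka2 lay between 1.05 and 1.65 in all libraries, and that of I830077J02Rik, the ATP synthase subunit gene Atp5f1, Wdr77 and Ovgp1 between 1.27 and 1.52. The bin of the potassium channel gene Kcnd3 was near 0, at 0.0128 and 0.0729 in Erg KO and 0.0859 to 0.259 in the controls.

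The right flank averaged 0.848 and 1.27 in Erg KO and 1.25 to 1.38 in the controls, so that only Erg KO replicate 1 lay apart. Its bins of Cept1 and Dram2, of Lrif1, of the leukocyte tetraspanin gene Cd53, of Olfr266 and of the lymphocyte potassium channel gene Kcna3 scored 0.697 to 0.989 in that library, the bin between Olfr266 and Kcna3 included, and 1.11 to 1.33 in Erg KO replicate 2. None of the 15 flank bins was called, where 2.2% of all bins were called lower and 2.55% higher. With both flanks subtracted, the cluster scored -0.953 and -0.98 in Erg KO, -0.689 and -0.605 in the CreT control and -0.634 and -0.51 in the Erg fl/fl control. Both Erg KO libraries are close on this scale, with means of -0.967 ± 0.0196 (SD, n = 2) and -0.61 ± 0.0748 (SD, n = 4).

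At the left edge of the window, the first bin inside scored 0.27 and 0.371 in Erg KO and 0.368 to 0.592 in the controls, and the last bin outside 0.903 and 0.964 against 0.964 to 1.05. At the right edge, the bin of Kcna2 and Kcna10, both potassium channel genes, scored 1.04 and 1.29 against 1.35 to 1.43, and the first bin outside 1.17 and 1.3 against 1.32 to 1.41.

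Contacts of the cluster with bins of positive (A) and negative (B) mean control score were then given as observed over expected counts at the same distance. Those on chromosome 3 also enter the score that selected the window. They therefore describe the same difference again and are no second line of evidence. On chromosome 3, beyond 2 Mb, contacts of the cluster with compartment B were 1.28 and 1.22 in Erg KO, 0.968 and 0.987 in the CreT control, and 1.0 and 0.887 in the Erg fl/fl control. Each Erg KO library exceeded all 4 controls, with means of 1.25 ± 0.0478 (SD, n = 2) and 0.96 ± 0.0511 (SD, n = 4). Contacts with compartment A were 1.08 and 1.13 in Erg KO and 1.16 to 1.19 in the controls, a smaller difference of means of -0.0723.

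The log2 ratio of A over B contacts on the same chromosome was -0.25 and -0.11 in Erg KO, 0.30 and 0.24 in the CreT control, and 0.22 and 0.42 in the Erg fl/fl control. That is, the cluster met compartment B more than compartment A in both Erg KO libraries and the reverse in the 4 controls. The difference of means was -0.47, against -0.24 for the left flank, -0.50 for the right flank and -0.12 for the median of the 738 compartment A bins of the chromosome. In the right flank Erg KO replicate 1 gave 0.60, while replicate 2, at 1.21, lay just under the controls, which ran from 1.23 to 1.55.

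Contacts with other chromosomes gave log2 ratios of A over B of 0.18 and 0.31 in Erg KO, 0.58 and 0.49 in the CreT control, and 0.58 and 0.73 in the Erg fl/fl control. Again the cluster was lowest in the Erg KO libraries, but stayed above 0. The difference of means of -0.35 stood beside -0.42 in the left flank, -0.38 in the right flank and -0.28 for the median of all 11385 compartment A bins, so that a lower ratio between chromosomes was shared with compartment A as a whole. The cluster had 3149 to 8629 contacts with other chromosomes per library. When contacts were divided by the coverage of both bins, the cluster's difference was -0.22 on the same chromosome and -0.10 between chromosomes. Coverage, meaning all contacts of a bin relative to the window median, was 1.52 and 1.53 in Erg KO and 1.4 to 1.49 in the controls for the Chia1 and Chil3 bin, and 1.49 and 1.42 against 1.31 to 1.38 for the Chil4 bin. Its part in these values was not tested.

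**Figure D2:**
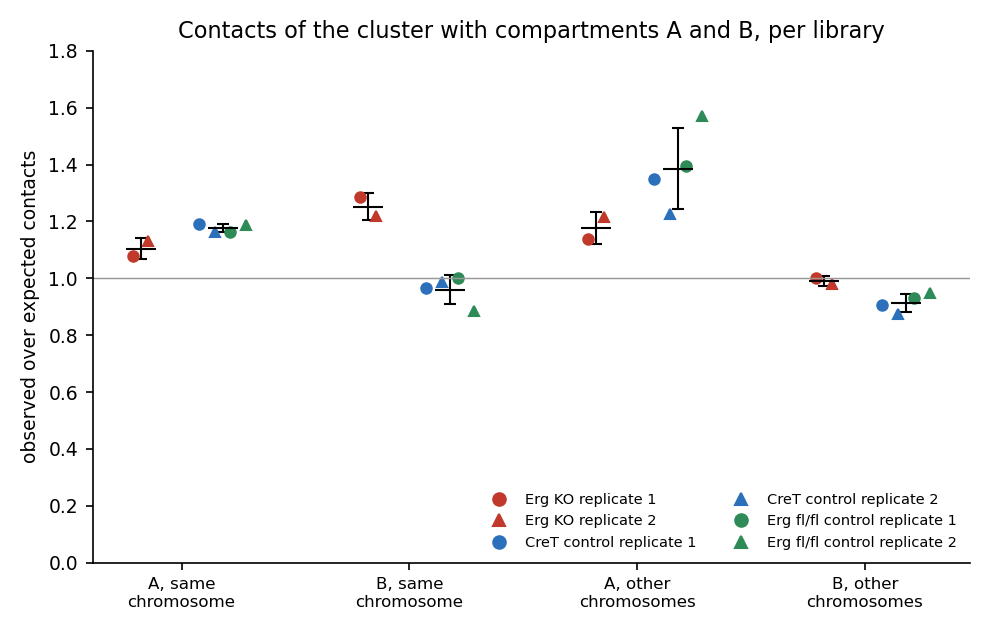
Observed over expected contacts of the 5 cluster bins with compartments A and B on the same chromosome beyond 2 Mb and on other chromosomes, 1 point per library, with bars for mean and SD of Erg KO (n = 2) and of all controls (n = 4). In contacts with B on the same chromosome the Erg KO libraries stand at 1.28 and 1.22, above all 4 controls.

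Along chromosome 3, contacts of the cluster were summed in steps of 1 Mb up to 20 Mb on either side. These contacts too enter the score that selected the window, so the counts of steps are a description. Of 17 steps with a negative mean control score, both Erg KO libraries exceeded all 4 controls in 10 and lay below all of them in 0, and the median log2 ratio of Erg KO over control means was 0.37. Of 23 steps with a positive score, both lay below all controls in 9 and above them in 1, with a median of -0.20. The largest difference of a B step was at 6 Mb to the right, where observed over expected contacts were 1.14 and 0.993 in Erg KO, 0.544 and 0.678 in the CreT control, and 0.735 and 0.463 in the Erg fl/fl control. At 13 Mb to the left they were 1.86 and 1.92, against 1.13 to 1.35 in the controls. Steps 17 and 18 Mb to the left, in compartment A, ran the other way, with 0.409 and 0.365 against 0.429 to 1.05 and 0.44 and 0.638 against 0.701 to 1.19. A step held 26 to 2007 contacts per library, so the farther steps are less precise.

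**Figure D3:**
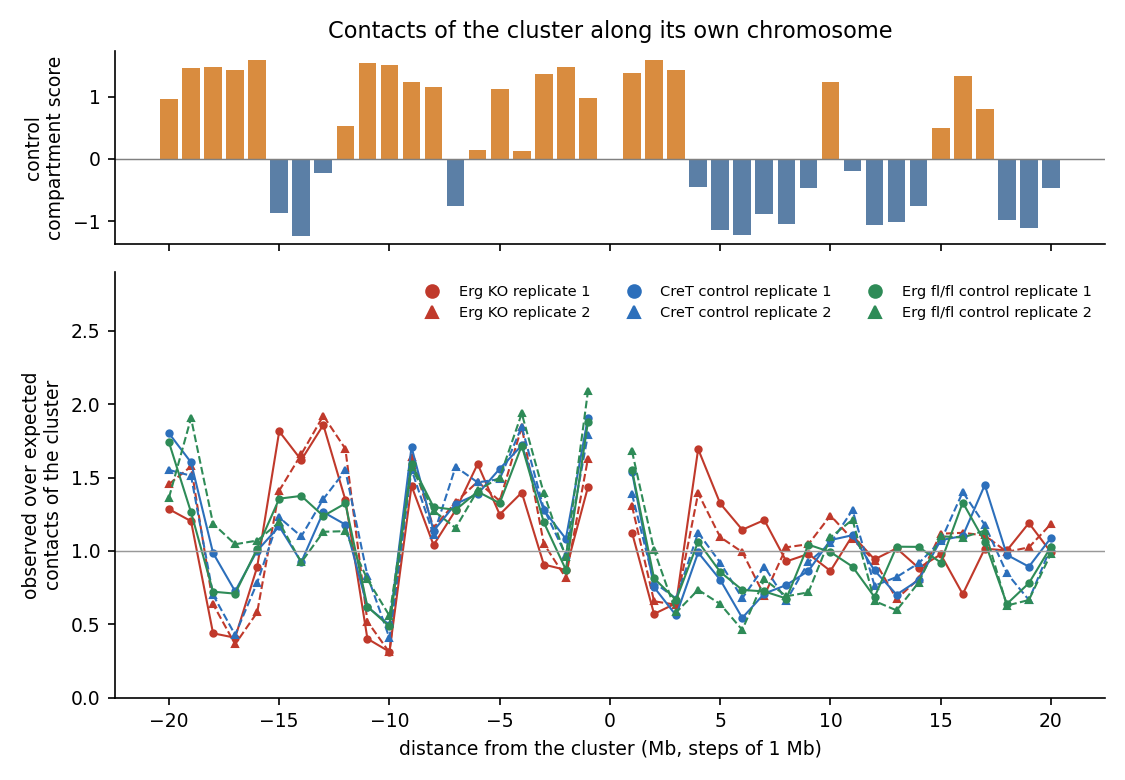
Mean control compartment score (top) and observed over expected contacts of the cluster (bottom) in steps of 1 Mb along its chromosome, 1 line per library. The Erg KO lines rise above the control lines over B steps such as 4 to 6 Mb to the right and 13 to 15 Mb to the left, and lie under them over A steps such as 10 and 11 Mb to the left.

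Within the cluster, contacts between its own bins were 1.31 and 1.32 times the expected count in Erg KO, 1.3 and 1.18 in the CreT control, and 1.31 and 1.2 in the Erg fl/fl control. Both groups overlapped, and the means of 1.31 ± 0.00267 (SD, n = 2) and 1.25 ± 0.0699 (SD, n = 4) differed by less than the SD of the controls. Contacts of the cluster with the left flank were 1.1 and 1.23 in Erg KO, against 1.23 to 1.48 in the controls. With the right flank they were 0.987 and 1.09, against 1.06 to 1.36. In both cases Erg KO replicate 1 was the lowest library and Erg KO replicate 2 lay next to CreT control replicate 2.

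The 2 flanks met each other across the cluster more than the cluster met either of them. These contacts were 1.39 and 1.55 in Erg KO, 1.77 and 1.62 in the CreT control, and 1.8 and 1.89 in the Erg fl/fl control, with no overlap and a difference of means of -0.304. Contacts within the left flank were 1.05 and 1.15 against 1.19 to 1.28, and those within the right flank 1.15 and 1.38 against 1.18 to 1.34. Division by the coverage of both bins reduced the difference of means to -0.0265 for cluster to left flank, -0.0891 for cluster to right flank and -0.0309 between the flanks.

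**Figure D4:**
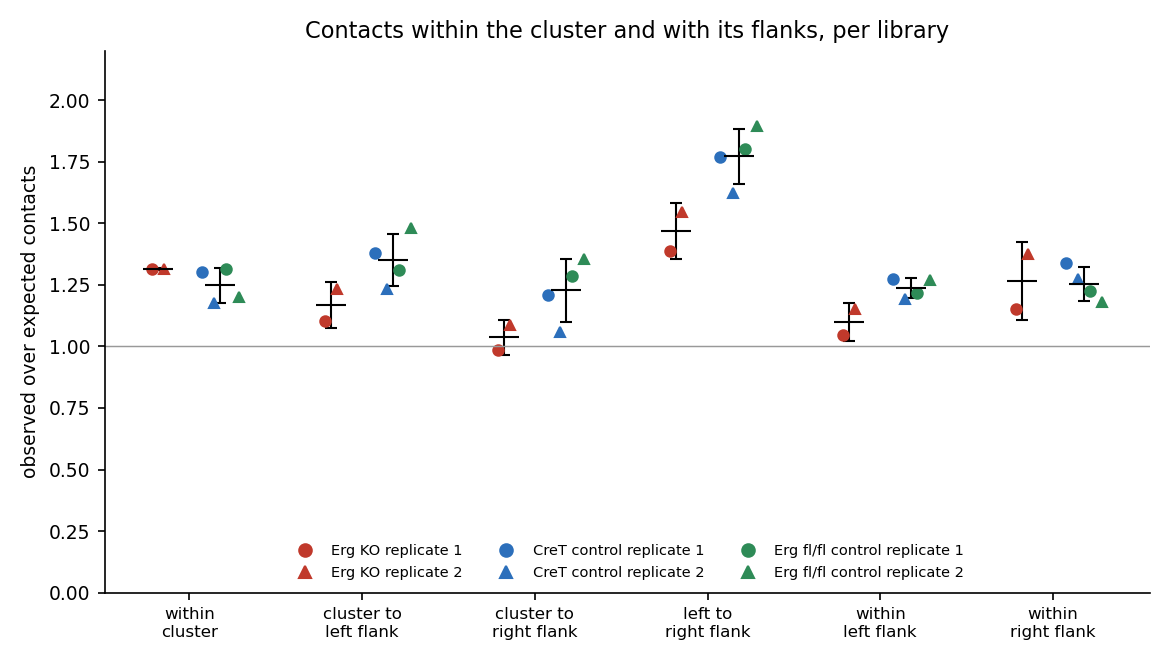
Observed over expected contacts within the cluster, between it and its flanks, and among the flanks, 1 point per library, with bars for mean and SD of Erg KO (n = 2) and of all controls (n = 4). The Erg KO libraries overlap the controls within the cluster and lie below all 4 controls between the flanks, at 1.39 and 1.55.

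**Figure D5:**
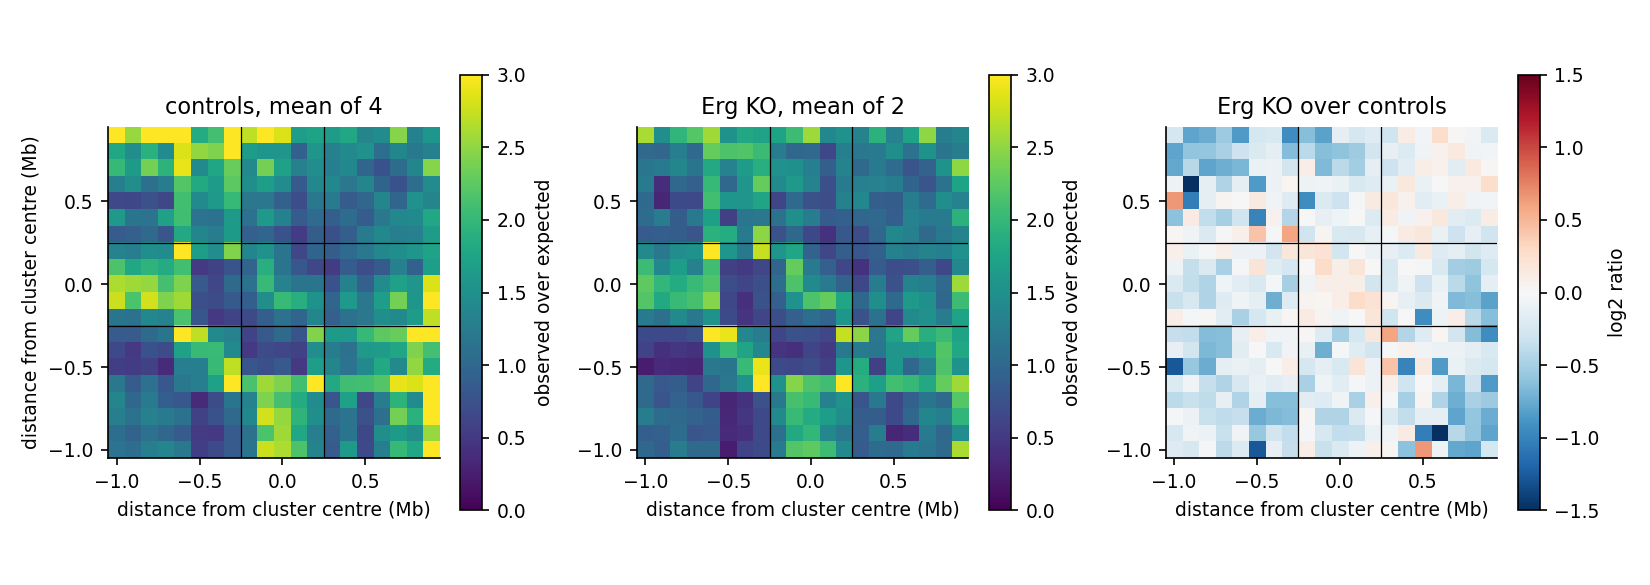
Observed over expected contacts of each pair of the 20 bins as the mean of 4 controls (left) and of 2 Erg KO libraries (middle), and the log2 ratio of Erg KO over controls (right), with lines at the edges of the cluster. Both axes are distance from the cluster centre in Mb, and on the right the square of the cluster itself is mostly pale to red, while most squares within the left flank and between the flanks are blue.

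Single bin pairs were compared with edgeR, with normalised counts adjusted for abundance. Of 206 tested pairs in the window, 23 were called lower and 2 higher in Erg KO, where 7.11% of all pairs were called lower and 7.11% higher. The 23 were 9 of 52 pairs between the flanks, 6 of 36 within the left flank, 5 of 35 between cluster and right flank, and 3 of 40 between cluster and left flank. Within the cluster 0 of 15 were lower. The 2 pairs called higher were the contacts of the Chil4 bin with itself and of the bin after it with itself. For the Chil4 bin these were 345 and 291 normalised counts in Erg KO, 264 and 275 in the CreT control, and 273 and 291 in the Erg fl/fl control. No pair of the window was called by DESeq2 or when either Erg KO library was left out. Leaving out CreT control replicate 1 gave 10 calls of a lower count, and leaving out Erg fl/fl control replicate 2 gave 6.

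Among these, the pair with the smallest p joined the Chia1 and Chil3 bin to the bin of Kcna2 and Kcna10 at the right edge. It had 20.8 and 39.8 normalised counts in Erg KO, 38.7 and 59.2 in the CreT control, and 56.8 and 77.4 in the Erg fl/fl control, a fitted log2 fold change of -1.10. Only Erg KO replicate 1 lay below all controls. The next 2 joined the same right edge bin to the Ovgp1 bin, with 22.0 and 19.6 against 33.1 to 68.1, and to the Ddx20 bin, with 25.2 and 22.8 against 30.6 to 71.3. In both of these the Erg KO libraries lay below every control. The last 2 of the 5 joined the Kcnd3 bin to the bin after it, at 129 and 156 against 162 to 209, and the Ddx20 bin to the Chil5 bin, at 62.1 and 55.5 against 80.6 to 99.8.

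The insulation score is the log2 of the mean contact across a bin, between the 5 bins before and the 5 bins after it, over the mean of its chromosome, so that a low value marks a boundary. In the cluster it averaged 0.451 and 0.542 in Erg KO, 0.656 and 0.563 in the CreT control, and 0.687 and 0.677 in the Erg fl/fl control. No cluster bin reached a score below 0 in any library. The Chil4 bin scored 0.619 and 0.653 in Erg KO against 0.59 to 0.736, with overlap, and the Chil6 bin 0.285 and 0.266 against 0.303 to 0.734. In the left flank the score averaged 0.163 and 0.279 against 0.451 to 0.848, and in the right flank 0.277 and 0.534 against 0.612 to 0.78. In the window 17 of 20 bins were called lower, 2 of them in the cluster, where 26.7% of all bins were called lower.

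Local contacts, those of a bin with bins 200 kb to 2 Mb away scaled to the sum of such contacts over all kept bins (CPM), averaged 48.0 and 52.5 CPM in the cluster bins in Erg KO, 58.6 and 54.2 in the CreT control, and 58.6 and 61.9 in the Erg fl/fl control. They were 44.0 and 49.4 against 51.9 to 59.7 in the left flank, and 45.5 and 55.1 against 55.9 to 59.5 in the right flank. For the Chil4 bin they were 47.2 and 49.6 against 54.5 to 69.4, and for the Chia1 and Chil3 bin 56.2 and 62.1 against 63.3 to 73.8. All 5 cluster bins, all 8 left flank bins and 5 of 7 right flank bins were called lower by edgeR, where 33.2% of all bins were.

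The 2 control genotypes did not select the window, and were tested against each other. For the compartment score 0 of 20 bins passed in limma (0% of all bins), with an adjusted p of 0.221 for the Chil5 bin, the lowest in the window. With sex in the model, the CreT control was fitted 0.20 (SE 0.0383) above the Erg fl/fl control there. The scores themselves were 0.857 and 0.853 in the CreT control and 0.659 and 0.914 in the Erg fl/fl control. Their means differed by 0.0683, and the CreT control values lay between those of the Erg fl/fl control. The 20 bins included 3 with an unadjusted p under 0.05. For the insulation score 0 of 20 passed (0% of all bins, 2 at an unadjusted p under 0.05), and for local contacts 0 of 20 passed in edgeR (0% of all bins, 0 at an unadjusted p under 0.05). Of 206 bin pairs 0 passed in edgeR or in DESeq2, with 18 at an unadjusted p under 0.05, where 0.000509% of all pairs passed. Some bins passed for all 3 scores when Erg fl/fl control replicate 1 was left out, but that fit holds 1 library of the genotype. The share of all bins called in it is not given here, so those calls are not read.

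For single values such as the cluster mean the smallest two-sided p that an exact permutation of 2 against 2 libraries can reach is 0.333, so none was computed. The cluster mean score was 0.459 ± 0.0221 (SD, n = 2) in the CreT control and 0.511 ± 0.142 (SD, n = 2) in the Erg fl/fl control, and the contacts of the cluster with compartment B on its chromosome were 0.977 ± 0.0134 and 0.944 ± 0.0808. Both differences between the controls were smaller than the SD of the Erg fl/fl control.

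Genes of the same family elsewhere in the genome lay outside the window and were tested in the Erg KO comparison. Chit1, which encodes chitotriosidase, and Chil1, which encodes a lectin related to Chil3, share a bin of chromosome 1 that scored 1.46 and 1.42 in Erg KO, 1.46 and 1.44 in the CreT control, and 1.52 and 1.72 in the Erg fl/fl control. Chid1 scored 1.44 to 1.47 in all 6 libraries, and Ctbs, a lysosomal chitobiase that lies on chromosome 3 but outside the window, 0.835 to 1.17. By limma 0 of the 4 genes was called higher or lower in compartment score, where 2.55% of all bins were called higher and 2.2% lower. Their adjusted p lay between 0.262 and 0.951, and 0 of the 4 had an adjusted p under 0.05 also with sex left out. Some of the 4 were called without Erg KO replicate 1 or without Erg fl/fl control replicate 1. Each of these fits holds 1 library of that genotype. The share of all bins called in them is not given here, so those calls are not read. In local contacts Chid1 fell by 0.51 on the log2 scale (adjusted p = 3.28e-07, edgeR) and the bin of Chit1 and Chil1 by 0.41 (adjusted p = 1.98e-06, edgeR), while Ctbs had a difference of -0.01 (adjusted p = 0.917, edgeR). Lower calls were made in 33.2% of all bins.

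Of 16 genes of monocyte and neutrophil precursors, cells in which Chil3 is high, 0 were called in compartment score by limma. Over all bins 2.55% were called higher and 2.2% lower, so 0 calls in so short a list are not read. The median difference was -0.02 beside 0.001 over all bins. The 3 largest differences were those of the neutrophil protease gene Ctsg (-0.23, adjusted p = 0.0668), of Ly6c2 (-0.15, adjusted p = 0.188) and of the myeloperoxidase gene Mpo (-0.081, adjusted p = 0.178), all from limma. For Ctsg the scores were 0.581 and 0.598 in Erg KO, 0.842 and 0.72 in the CreT control, and 0.837 and 0.847 in the Erg fl/fl control, with no overlap. The 16 genes lie in 14 bins. In local contacts 15 of the 16 genes were called lower by edgeR, where 33.2% of all bins were. Lower calls were also made for 11 of 13 B-cell progenitor markers, 5 of 5 T-cell markers and 5 of 11 stromal markers. The lower local contacts were thus not particular to this list.

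Of 12 genes of alternatively activated macrophages, for which Chil3 is a marker, 0 were called in compartment score. Over all bins 2.55% were called higher and 2.2% lower, so this count is not read either. The median difference was -0.010. The 3 largest were Retnla, which encodes a resistin-like protein (-0.35, adjusted p = 0.107), the arginase gene Arg1 (0.30, adjusted p = 0.0503) and Cd209a (0.16, adjusted p = 0.402), all from limma. Retnla was low in Erg KO replicate 1 alone, at -0.181, with 0.414 in replicate 2 and 0.245 to 0.459 in the controls. Arg1 scored 0.859 and 0.853 in Erg KO and 0.394 to 0.675 in the controls, above them in both libraries. In local contacts 8 of the 12 were called lower, where 33.2% of all bins were.

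Hi-C gives no marker expression, so the labelled cell type could be checked only by the compartments of marker bins. Of 13 B-cell progenitor markers 12 had a positive score in controls and in Erg KO, and their mean over 11 bins was 0.814 and 0.94 in Erg KO and 0.966 to 1.05 in the controls. By group means the exception was Ebf1, at -0.741 to -0.449 in 5 libraries and 0.0331 in Erg fl/fl control replicate 2. Il7r, positive by group means, scored -0.00626 in Erg KO replicate 1. It scored 0.847 in Erg KO replicate 2 and 0.767 to 0.961 in the controls. All 5 monocyte and macrophage markers and all 5 T-cell markers were also positive in both, so that these scores do not separate the cell types. Of 11 stromal markers, as for OP9 feeder cells, Prrx1 (adjusted p = 0.0373), Col1a2 (adjusted p = 0.0395) and Pdgfra (adjusted p = 0.0449) were called higher in Erg KO by limma and 0 lower, where 2.55% of all bins were called higher and 2.2% lower. Col1a2 scored 0.713 and 0.464 in Erg KO and 0.198 to 0.4 in the controls, above them in both libraries. For Prrx1, at 0.514 and 0.132 against -0.132 to 0.289, and for Pdgfra, at 0.518 and 0.181 against -0.0175 to 0.252, only Erg KO replicate 1 lay above all controls. The list mean was 0.681 and 0.443 in Erg KO, 0.406 and 0.397 in the CreT control, and 0.549 and 0.541 in the Erg fl/fl control, highest in Erg KO replicate 1, the library with the lowest scores in the cluster. Over the 11 stromal markers the median fitted difference in compartment score was 0.069, and 2 of them, Postn and Thy1, had a negative one. In local contacts 3 of the 11 were called higher and 5 lower by edgeR. Over all bins, 8119 of 23651 were called higher and 33.2% lower. The part of feeder cells in the cluster's scores was not tested. The 3 stromal calls were lost with the replicate block, with sex left out, and without either CreT control library.

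The bins outside the window whose scores over the 6 libraries followed the cluster mean most closely, among 1308 with a protein-coding start and a comparable spread, were those of Aqp4 on chromosome 18 (Pearson r = 0.995), Glo1 and Dnah8 on chromosome 17 (r = 0.994), Oprm1 and Gm10945 on chromosome 10 (r = 0.982), Stmnd1 on chromosome 13 (r = 0.982) and Mucl1 on chromosome 15 (r = 0.982). These were picked for their likeness over 6 libraries, whose differences in depth and genotype are the same for every bin, and the values are a description. The bin of the water channel gene Aqp4 scored -0.657 and -0.372 in Erg KO, -0.031 and 0.00293 in the CreT control, and -0.0769 and 0.174 in the Erg fl/fl control. A bin with Glo1, which encodes glyoxalase, scored 0.271 and 0.396 in Erg KO and 0.722 to 0.934 in the controls, and stayed in compartment A as the outer bins of the cluster did.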

How the data were processed

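In situ Hi-C of 6 libraries was analysed, 2 for each of 3 genotypes. The authors mapped reads to mm10 with diffHic, discarded duplicates and artefact pairs, and tallied the remainder in bins that join restriction fragments to a length near 100 kb. The deposited values are raw counts of read pairs per bin pair. Reads of near copies such as Chil3 and Chil4, and of stretches repeated between the cluster and its flanks, can be lost or misplaced at alignment. Bins were placed on GRCm38, whose lengths 19 of 19 autosomes match, and genes by their start in GENCODE M21.

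Bins with total contacts between 0.3 and 3 times the median were kept. Bin pairs with a summed count of at least 10 and an abundance 5-fold or more over the level between chromosomes (393018, with summed counts from 50) were tested with edgeR 4.0.16 and loess offsets, local contacts with edgeR and TMM, compartment and insulation scores with limma 3.58.1, each modelled on group and sex, with Benjamini-Hochberg adjustment over all bins or pairs. Expected counts were the mean at the same distance on all autosomes of a library. Named genes are the members, the protein-coding genes of the window, the family elsewhere, the 3 largest differences of each list, the 5 window pairs with the smallest p and the 5 most similar bins. The stromal genes named are those that passed. On simulated counts with changed bin pairs the edgeR test was checked for recovery. The members and lists were chosen with earlier results of these data known. The main fits did not pair libraries by replicate number, since the labels give no such pairing. The correlation of replicate deviations between groups ranged from -0.354 to 0.139. It cannot settle whether libraries of the same number shared a culture or batch, which is not known. The replicates differed by more than sampling noise, with chi-square per degree of freedom from 1.78 to 9.53. Protein sequences were not analysed here. Python 3.11.15, R 4.3.3 and blastn 2.17.0 were used. Alternatives were another normalization, filter, test (DESeq2), distance window, covariates, and each library left out.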

Additional observations from a re-analysis of the deposited data

Results flagged for a closer look

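In 2 of 49 sets of 4 control values the highest control lay far from the other 3, and chance gives about 1 in 20. Erg fl/fl control replicate 2 scored 0.391 in the bin of Chia1 and Chil3, where the other controls lay between 0.0696 and 0.122. The same library scored 0.316 in the Chil4 bin, where they lay between -0.0707 and -0.0412. It has the fewest read pairs, 29014581, and is the only control library from a male mouse. Whether depth or sex has a part in these scores was not tested.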

How the results depend on the processing

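The difference in cluster score, Erg KO minus controls with sex in the model, was -0.597, and became -0.463 with no smoothing, -0.469 with bin coverage divided out and -0.472 with all bins of the span. It ranged from -0.604 to -0.589 with each library left out. The 5 cluster bins called lower became 0 with group only, and 0 to 5 with a library left out. Insulation calls lower (17 bins) became 11 with 3 bins on each side and 10 with group only. Bin pairs called lower (23) became 0 by DESeq2 1.42.0, 13 with a count minimum of 20 and no abundance filter and 8 with group only, and 0 to 26 with a library left out. Those called higher (2) became 0 by DESeq2, 1 with that minimum and no abundance filter and 0 with group only, and 0 to 2 with a library left out.

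With the expected count from the same chromosome, the contact differences were -0.300 for cluster to left flank, -0.454 between the flanks and -0.231 within the left flank. With bin coverage divided out they were -0.0265, -0.0309 and 0.0373, the last of opposite sign to the reported -0.139, and 0.109 within the right flank. Leaving out a library gave -0.193 to -0.0849 within the left flank and -0.100 to 0.123 within the right flank, where the sign turned without Erg KO replicate 2. With bin coverage the difference in log2 ratio of A over B was -0.22 instead of -0.47 on the same chromosome, and -0.099 instead of -0.35 between chromosomes. The cause was not tested.

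Between the controls, leaving out a library gave 0 to 8 window bins for compartment score, 0 to 1 for local contacts and 0 to 2 for insulation. Compartment calls with a library left out were 0 to 3 of 4 family genes, 0 to 5 of 28 genes of the myeloid lists, 0 to 6 of 11 stromal markers and 0 to 7 of 23 other markers. The stromal calls (3) became 0 with group only.

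With the replicate block, which has no basis in shared animals here, the cluster difference was -0.589, 4 cluster bins and 18 bin pairs were called lower, 1 pair was called higher and 0 stromal markers were called. Single bin pairs rest on few counts per library, which limits their precision.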
